A study of Homo sapiens with 3 samples.

Results

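A set of 10 iron-handling genes, of the 22827 genes in the deposited table, was read in each of 3 RNA-seq libraries. They are TFRC, STEAP2, STEAP3, STEAP4, SLC11A2, SLC40A1, FTH1, FTL, IREB2 and NCOA4. The set was chosen by role (iron uptake, reduction, storage, regulation and export), and it was proposed with the higher STEAP4 counts of both knockouts already known, so every value below is a description and none is a test. All 10 symbols matched an Ensembl identifier of the table, and 8 had at least 10 reads in 1 or more libraries. STEAP2 and SLC40A1 were listed at 0 reads throughout.

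The cells are labelled Hep3B, a human hepatocellular carcinoma line, and carried no named knockout (control), a USP39 knockout (USP39-KO) or a SIRT7 knockout (SIRT7-KO). Where 3 values are given in a row below, they stand in that order. USP39 is a spliceosome-associated member of the ubiquitin-specific protease family, and SIRT7 is a nuclear NAD-dependent deacylase. The labels name no treatment and no time, and do not say how the knockouts were made or whether each line is a clone or a pool. Each group has 1 library, so a knockout cannot be told apart from its library or line, and differences have no replicate check.

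Library totals ran from 16151522 to 19427940 reads. USP39 had 1829, 1066 and 1511 reads and SIRT7 had 984, 808 and 608 reads, so each target was lowest in its own knockout but still read there. Among 12 hepatocyte markers, 6 (ALB, AFP, TTR, APOB, APOA2 and GPC3) had 0 reads everywhere and 10 stayed under 10 reads, which goes against the label of a hepatocyte-derived line. Zeros in this table need care: COL1A2 was listed at 0 in all 3 libraries while its partner chain COL1A1 had 1978, 2071 and 1523 reads.

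Cells take up iron mainly as transferrin bound to the transferrin receptor (TFRC). In the acidified endosome a STEAP metalloreductase reduces ferric to ferrous iron, SLC11A2 (also called DMT1) carries it into the cytosol, ferritin made of FTH1 and FTL subunits stores it, NCOA4 delivers ferritin to lysosomes for release, and SLC40A1 (ferroportin) exports it. Iron regulatory proteins, of which IREB2 encodes one, bind hairpins called iron-responsive elements when iron is scarce. Binding in the 5′ untranslated region (UTR) of ferritin and ferroportin messages blocks translation, and binding in the 3′ UTR of the TFRC message protects it from decay. The liver is a main iron store of the body, which is why these genes are much studied in liver cells.

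The members were searched for a strict form of such a hairpin. The sequences are shown because this element is what ties TFRC and ferritin to the same regulators. GENCODE 29 protein-coding transcripts were searched in their UTRs for an unpaired C, a stem of 5 pairs, a loop of 6 bases that starts with CAGTG and does not end in G, and at least 4 of 6 pairs below the C, with G-T pairs allowed. A hairpin of this form was found in 22 of 19684 protein-coding genes (0.112%), with 6 genes having it in a 5′ UTR and 16 in a 3′ UTR. Of the 10 members 4 were among them. Each line below is 29 bases of the message strand, 5′ to 3′, with the loop in capitals.
FTH1 5′ UTR: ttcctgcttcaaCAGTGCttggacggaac
FTL 5′ UTR: ctcttgcttcaaCAGTGTttggacggaac
SLC40A1 5′ UTR: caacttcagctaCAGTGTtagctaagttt
TFRC 3′ UTR, site 1: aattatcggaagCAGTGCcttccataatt
TFRC 3′ UTR, site 2: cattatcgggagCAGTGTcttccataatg
TFRC 3′ UTR, site 3: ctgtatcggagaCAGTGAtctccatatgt
TFRC 3′ UTR, site 4: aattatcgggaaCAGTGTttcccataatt

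These sites lie, in the GRCh38 coordinates of GENCODE 29, at chr11:61967574-61967602 (minus strand) for FTH1, chr19:48965335-48965363 (plus strand) for FTL and chr2:189580661-189580689 (minus strand) for SLC40A1, each in exon 1. The TFRC sites are all in exon 18 on the minus strand, at chr3:196050979-196051007, chr3:196050575-196050603, chr3:196050510-196050538 and chr3:196050463-196050491 in message order. No match of this form was found in the UTRs of STEAP2, STEAP3, STEAP4, SLC11A2, IREB2 or NCOA4. The form is strict, so a hairpin with a bulge in its stem or with another loop would be missed. The lack of a match thus does not show that a message has no iron-responsive element. A match is a description of letters, and these libraries do not measure binding of a protein to it.

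Per length, the ferritin genes were the most abundant members and STEAP4 the least abundant of those detected. On the FPKM scale (reads scaled to gene length and library total, as deposited by the authors), the control levels were 671.7 for FTL, 356.1 for FTH1, 137.2 for TFRC, 18.1 for STEAP3, 13.8 for IREB2, 10.7 for SLC11A2, 3.01 for NCOA4 and 0.108 for STEAP4. This order was the same in all 3 libraries. FTL ranked 23rd of 14711 genes with reads in the control, FTH1 45th and TFRC 179th. The closest neighbours were STEAP3 and IREB2 in USP39-KO, at 15.9 and 14.7 FPKM (ratio 1.08, counting interval 1.01 to 1.15). Over the 10 genes together, 53370 reads (0.275% of the library) were of the control, 54891 (0.33%) of USP39-KO and 37286 (0.231%) of SIRT7-KO.

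**Figure D1:**
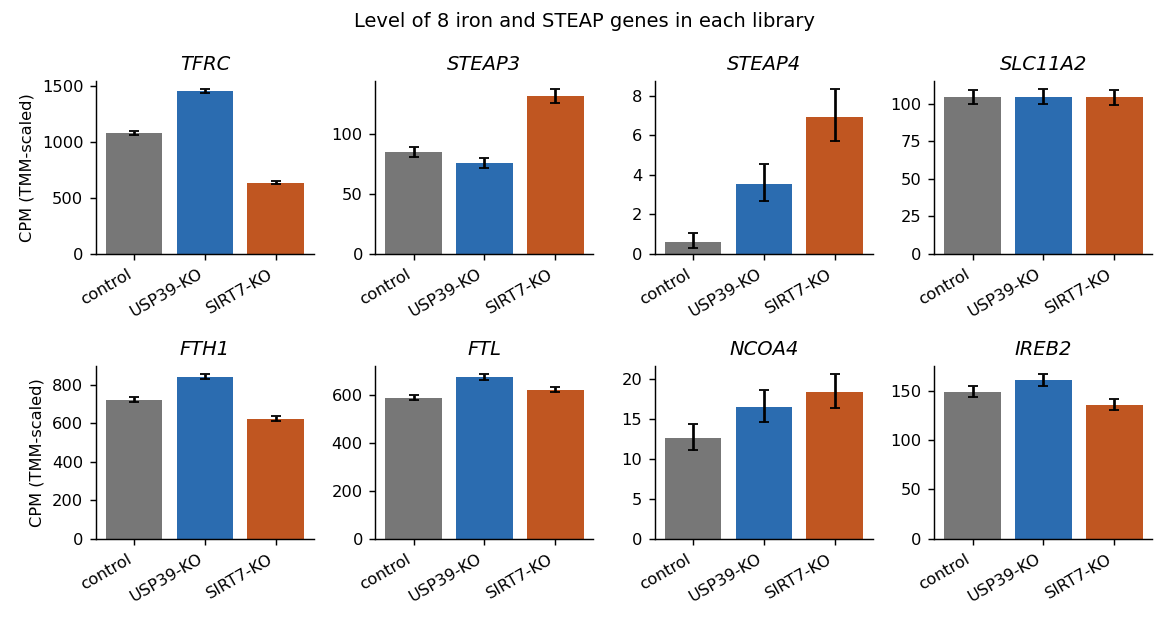
Level of the 8 detected members in each library, as CPM (reads scaled to library size by TMM factors; each panel has its own axis from 0). Bars are single libraries and error bars are exact 95% Poisson intervals, which cover counting error only. TFRC is highest in USP39-KO and lowest in SIRT7-KO, STEAP4 is lowest in the control, and SLC11A2 is level.

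Higher and lower calls for a pair of libraries required that the log2 ratio of its scaled counts be at least 1 in size (2-fold) and that the exact 95% interval, which covers counting error only, leave out 0. Folds are ratios of CPM. In USP39-KO against control, 1 of the 8 detected members was higher by this rule (STEAP4) and 0 were lower, beside 1.49% of all 12726 kept genes called upward and 3.37% downward. In SIRT7-KO against control the count was again 1 higher (STEAP4) and 0 lower, beside 3.02% of kept genes upward and 4.05% downward. Both comparisons share the control library. The higher STEAP4 counts were known when the set was proposed, so nothing is read from setting its calls beside these shares. Between the knockouts, which leaves the control out, 0 members were higher and 1 (TFRC) was lower in SIRT7-KO than in USP39-KO, beside 5.03% upward and 3.51% downward. No p-value is given, and with 1 library a group no count at an unadjusted p exists.

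**Figure D2:**
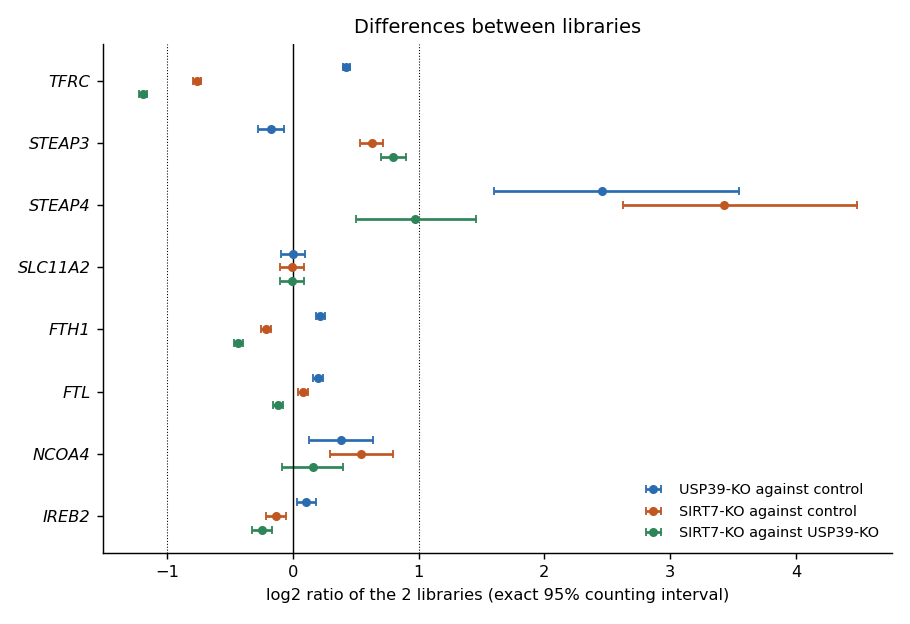
Log2 ratio of each detected member in the 3 pairs of libraries, with exact 95% counting intervals; dotted lines mark 2-fold. STEAP4 lies beyond 2-fold in both knockouts against control, TFRC lies at -1.19 between the knockouts, and SLC11A2 lies at 0 in all 3 pairs. The 2 comparisons with control share that library.

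TFRC, the receptor that takes up transferrin-bound iron (ENSG00000072274; chromosome 3, 196027183 to 196082189, minus strand), lay on opposite sides of the control in the knockouts. Its read counts were 21018, 23939 and 10418, or 1082, 1455 and 638.4 CPM. The level was 1.34-fold that of the control in USP39-KO (1.32 to 1.37) and 1.69-fold lower than the control in SIRT7-KO (1.66 to 1.74). Neither difference reached 2-fold. In bulk RNA, fewer cells with the message and less message per cell cannot be told apart. SIRT7-KO was 2.28-fold lower than USP39-KO (2.23 to 2.33), the 1 member past the rule in that pair. Among 4784 genes with at least 1000 reads in 1 or more libraries, 1.28% lay farther from 0 than TFRC between the knockouts, 2.47% in SIRT7-KO against control and 5.31% in USP39-KO against control.

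STEAP3 encodes the reductase best known for endosomal ferric iron in red cell precursors (ENSG00000115107; chromosome 2, 119223831 to 119265652, plus strand). Its read counts were 1659, 1247 and 2154, or 85.4, 75.8 and 132 CPM. Its order over the libraries was thus the reverse of that of TFRC. The level was 1.13-fold lower than control in USP39-KO (1.05 to 1.21) and 1.55-fold higher in SIRT7-KO (1.45 to 1.65). SIRT7-KO was 1.74-fold above USP39-KO (1.62 to 1.87), short of the rule. Among the 4784 genes with at least 1000 reads, 30.7% lay farther from 0 than STEAP3 in USP39-KO against control. In SIRT7-KO against control 4.52% did. Within a library, where scaling cannot enter, STEAP3 had 0.0789, 0.0521 and 0.207 reads for each TFRC read. That ratio was 3.97-fold higher in SIRT7-KO than in USP39-KO (3.69 to 4.28), which combines the opposite differences of STEAP3 and TFRC given above. Red cell markers were read beside it: of 10, 3 were at 0 throughout, including HBB and GATA1, and 8 stayed under 10 reads. The list summed to 11.8, 10.3 and 27 CPM, mostly from the erythropoietin receptor EPOR (207, 151 and 424 reads). The 2 markers that reached 10 reads went opposite ways. In USP39-KO and SIRT7-KO against control, EPOR had log2 ratios of -0.22 and 1.28, and the other had 0.23 and -0.71. The part of these markers in the STEAP3 values was not tested.

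STEAP4, a metalloreductase of iron and copper known for its response to inflammatory cytokines and nutrients (ENSG00000127954; chromosome 7, 88270892 to 88306891, minus strand), was low everywhere and lowest in the control. Its read counts were 12, 58 and 113, or 0.618, 3.52 and 6.92 CPM. The 3 Poisson intervals of these levels did not overlap. The level was 5.71-fold that of the control in USP39-KO (3.03 to 11.7) and 11.2-fold in SIRT7-KO (6.17 to 22.3). Calls of higher by the 2-fold rule in both knockouts against control were found for 0.424% of the 12726 genes. Nothing is read from this figure, because the STEAP4 pattern was known when the set was proposed. Between the knockouts the ratio was 1.96-fold (1.42 to 2.75) with a log2 value of 0.97, just under the rule. Even in SIRT7-KO its 1.23 FPKM was 23.1-fold below the 28.3 FPKM of STEAP3.

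Neither of the 2 detected genes nearest to STEAP4 passed the rule. On one side, SRI lies 43.9 kb away with 990, 877 and 808 reads (log2 ratios 0.06 and -0.04 against control), and ADAM22 lies 68.0 kb away with 340, 245 and 227 reads (-0.23 and -0.33). On the other side, ZNF804B and TEX47 had 0 reads in all libraries. Farther along chromosome 7, STEAP1 had 2, 2 and 0 reads and STEAP2 none, while CFAP69, next to STEAP2, had 78, 66 and 60. STEAP1B, elsewhere on that chromosome, was also at 0. Of the STEAP family only STEAP3 and STEAP4 therefore reached 10 reads in a library. Beside STEAP3, C2orf76 (91, 73 and 78 reads) and DBI (2574, 2407 and 1977 reads) had log2 ratios between -0.13 and 0.14 against control, while MARCO had at most 1 read and C1QL2 none.

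The stretch before the STEAP4 start is shown because this gene had the largest folds of the set. RefSeq (GRCh38.p14) promoters, from 250 bases before to 50 after a start, were matched for 9 of the 10 members, not for FTH1. They were searched on both strands for TTCNNNGAA (STAT-type), TTNNGCAA (C/EBP-type), TGACNNNGC (antioxidant response element core), ACGTG (hypoxia response element core). The last motif searched, the core promoter box of many inducible genes, was TATAAA. In the order named, these were present in 7.66%, 10.5%, 13.3%, 21.4% and 11.5% of 35116 promoters. The 250 bases before the start of STEAP4 lie at chr7:88306895-88307144 on the minus strand and hold 1 STAT-type match, 96 bases before the start, and 1 C/EBP-type match, 66 bases before it, both in capitals.
STEAP4: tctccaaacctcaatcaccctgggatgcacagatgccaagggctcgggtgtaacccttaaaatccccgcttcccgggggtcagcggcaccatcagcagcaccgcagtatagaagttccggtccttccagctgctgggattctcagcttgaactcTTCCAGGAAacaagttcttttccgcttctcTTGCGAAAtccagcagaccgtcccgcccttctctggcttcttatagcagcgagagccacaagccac

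None of the other 8 members with a promoter had a STAT-type or C/EBP-type match in these windows. The TFRC window held 1 TATAAA box and 1 hypoxia response element core, the FTL window 1 hypoxia response element core, 1 of 2 NCOA4 windows an antioxidant response element core, and 1 of 2 STEAP2 windows a TATAAA box. Over the whole promoter window of 300 bases, STEAP4 had a GC content of 58.7%, the median of all promoters, against 73.3% for TFRC and 78.7% for STEAP3. These matches are letters in a window, and no binding was measured.

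Genes were ranked by likeness to STEAP4, taken as the distance between the pairs of log2 ratios of each knockout against control, over 10044 protein-coding genes with at least 100 reads in 1 or more of the 3 libraries. The nearest was PRKCB, a protein kinase C isoform, at a distance of 1.10, with 18, 42 and 127 reads. Then came PRUNE2 (1.28; 28, 322 and 246 reads), PJA1 (1.57; 16, 26 and 123), PGBD5 (1.6; 39, 247 and 122), ZNF831 (1.82; 45, 89 and 164) and the interleukin-1 receptor IL1R1 (2.10; 59, 82 and 242). PRUNE2 and PGBD5 were lower in SIRT7-KO than in USP39-KO, unlike STEAP4. PJA1 and IL1R1 were not called higher in USP39-KO against control (log2 ratios 0.92 and 0.71). All of these genes had under 100 reads in the control, so they passed the read minimum only through a knockout. The ranking uses the STEAP4 pattern known when the set was proposed, so the list is a description and nothing is read from it. Markers of other cells were read beside these values. Of 10 macrophage markers, 7 including CD68, CD163 and PTPRC were at 0 in all libraries. The list summed to 2.99, 4.25 and 3.49 CPM, lowest in the control. The 2 that reached 10 reads had log2 ratios above 0 in both knockouts against control, and neither was called. Of 8 fibroblast markers, COL1A2 was at 0 throughout, and the list summed to 118, 140 and 115 CPM. Of the 4 that reached 10 reads, 2 were above 0 in USP39-KO against control and 3 in SIRT7-KO. Only ACTA2 was called against control, on 0, 5 and 14 reads, and the list sum did not follow its order. Of 7 endothelial markers, KDR was at 0 and the list summed to at most 1.72 CPM. The 2 that reached 10 reads went different ways: TEK was called lower in USP39-KO and STAB2 higher in SIRT7-KO. The 12 hepatocyte markers summed to 9.21, 2.07 and 0.674 CPM, the reverse of the order of STEAP4. Of these, 2 reached 10 reads: HNF4A had 113, 29 and 7 reads, and FGB had 55, 1 and 2. The part of these in the STEAP4 values was not tested. GENCODE 29 lists an antisense gene over STEAP4, and others over STEAP3, STEAP2 and IREB2. Strand use in counting is not stated, so reads of either strand cannot be told apart at these genes.

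SLC11A2, the proton-coupled carrier of ferrous iron (ENSG00000110911; chromosome 12, 50979401 to 51028566, minus strand), was level. It had 2033, 1723 and 1703 reads, or 104.6, 104.7 and 104.4 CPM. Its fold was 1.00 in USP39-KO (0.938 to 1.07) and 0.997 in SIRT7-KO (0.935 to 1.06) against control. Differences above about 1.07-fold thus lay outside the counting intervals for this carrier. Its partners in uptake, TFRC and STEAP3, lay outside that range in both knockouts.

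The ferritin subunits lay closer to the control than the receptor did. FTH1, the heavy subunit with ferroxidase activity (ENSG00000167996; chromosome 11, 61959718 to 61967660, minus strand), gave 14045, 13861 and 10188 reads, or 722.9, 842.2 and 624.3 CPM. It was 1.17-fold that of the control in USP39-KO (1.14 to 1.19) and 1.16-fold lower in SIRT7-KO (1.13 to 1.19). FTL, the light subunit that promotes iron core formation (ENSG00000087086; chromosome 19, 48965301 to 48966878, plus strand), gave 11457, 11143 and 10190 reads, or 589.7, 677 and 624.4 CPM. It was 1.15-fold in USP39-KO (1.12 to 1.18) and 1.06-fold in SIRT7-KO (1.03 to 1.09), so the lower value of SIRT7-KO was found for FTH1 and not for FTL. All of these differences were far under 2-fold. Among the 4784 deeply read genes, 21.7% lay farther from 0 than FTH1 in USP39-KO and 38.5% in SIRT7-KO, so ferritin differences of this size were common in the table.

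Because both subunits sit in 1 protein shell, their ratio was read within each library. FTH1 had 1.23 (1.20 to 1.26), 1.24 (1.21 to 1.28) and 1.00 (0.973 to 1.03) reads per FTL read. The ratio in USP39-KO was 1.01-fold that of the control, with an interval of 0.98 to 1.05, and the ratio in SIRT7-KO was 1.23-fold lower than the control (1.18 to 1.27). TFRC had 1.83, 2.15 and 1.02 reads per FTL read. Against FTH1 the TFRC ratios were 1.5, 1.73 and 1.02. The ratio of TFRC to FTL was thus 1.17-fold that of the control in USP39-KO (1.13 to 1.21) and 1.79-fold lower in SIRT7-KO (1.73 to 1.86). No interval of the 3 libraries overlapped another in either TFRC ratio. Reads of ferritin are uncertain in 1 respect: GENCODE 29 lists 25 FTH1 and 16 FTL pseudogene copies, none of them in the table, and how reads with several placements were counted is not stated in the labels or the file header. BEST1, which overlaps FTH1 on the other strand, had 17, 11 and 35 reads.

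**Figure D3:**
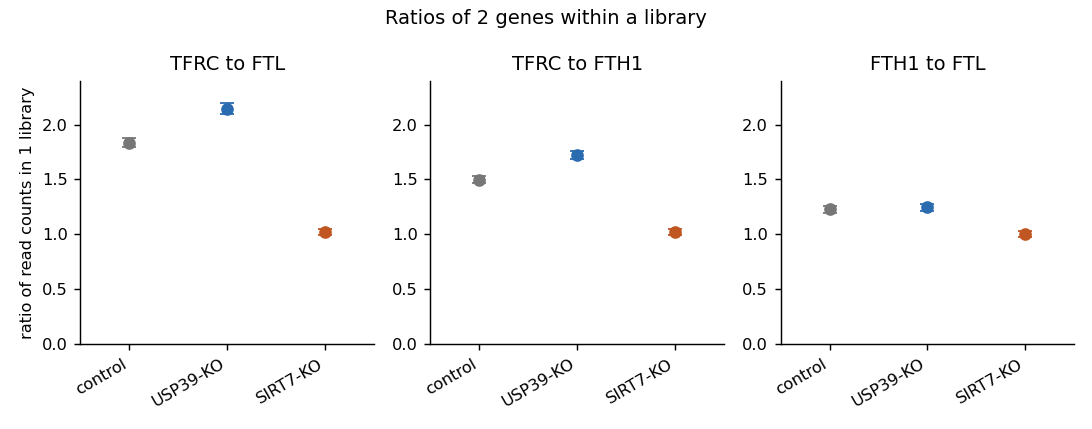
Read counts of one gene divided by those of another within the same library, with exact 95% counting intervals; such ratios do not depend on library scaling. Both TFRC ratios are highest in USP39-KO and lowest in SIRT7-KO, near 1.02, and FTH1 to FTL is 1.23, 1.24 and 1.00.

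IREB2 encodes iron regulatory protein 2, which is controlled mainly by protein decay (ENSG00000136381; chromosome 15, 78437431 to 78501456, plus strand). It had 2901, 2649 and 2220 reads, or 149.3, 161 and 136 CPM. The level was 1.08-fold in USP39-KO (1.02 to 1.14) and 1.10-fold lower in SIRT7-KO (1.04 to 1.16). Its order over the libraries was that of TFRC and FTH1, and not that of FTL, with smaller differences than those of TFRC and FTH1. Among the 4784 deeply read genes, 50.2% lay farther from 0 than IREB2 in USP39-KO and 57.3% in SIRT7-KO. Differences of this size were thus common, and nothing is read from the shared order. NCOA4, the ferritin receptor of autophagy (ENSG00000266412; chromosome 10, 46005088 to 46030714, minus strand), gave 245, 271 and 300 reads, or 12.6, 16.5 and 18.4 CPM. It was 1.31-fold in USP39-KO (1.09 to 1.56) and 1.46-fold in SIRT7-KO (1.23 to 1.73), and between the knockouts the interval spanned no difference (0.944 to 1.32). GENCODE 29 lists 3 NCOA4 pseudogene copies, none in the table, and the part of shared reads in its count was not tested.

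STEAP2, a reductase of the Golgi and plasma membrane, and SLC40A1, the exporter ferroportin, had 0 reads in each library. Where reads of a gene could be counted, a count of 0 allows up to 3 reads, or 0.154, 0.182 and 0.184 CPM. Whether reads of these genes could be counted is not known, given zeros such as that of COL1A2. If they could not, this bound does not hold. No fold is given for either. Of 6 other genes for export and ferroxidases, 2 reached 10 reads. FLVCR1, a haem exporter, was the most abundant of them, with 1209, 1212 and 1125 reads and 9.66 FPKM in the control. FLVCR2, its paralogue, had 168, 85 and 88 reads. Over the 8 detected members, the median log2 ratio was 0.21 in USP39-KO, 0.04 in SIRT7-KO and -0.06 between the knockouts, beside medians of -0.0022, -0.01 and -0.0042 over all 12726 genes. Against the control, USP39-KO had 6 intervals above 0, 1 below (STEAP3) and 1 around 0 (SLC11A2). In SIRT7-KO 4 lay above (STEAP3, STEAP4, FTL and NCOA4), 3 below (TFRC, FTH1 and IREB2) and 1 around 0 (SLC11A2). The share of all kept genes with such intervals was not computed. Genes with many reads have narrow intervals, so nothing is read from these counts.

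The rest of iron handling was read from 10 lists of 151 genes, of which 131 had enough reads. In USP39-KO 1 was higher and 1 lower by the rule against control, in SIRT7-KO 2 were higher and 3 lower, and between the knockouts 4 were higher and 5 lower. These are 131 genes in a table where the shares given above, from 1.49% to 5.03%, were called. Their median log2 ratio was 0.01 in USP39-KO and 0.04 in SIRT7-KO. None of the 21 detected genes of the transferrin cycle, such as clathrin and its adaptors, passed the rule in any pair. AP2M1, the most abundant, had 107.2, 103.9 and 107.4 FPKM.

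SCARA5, a scavenger receptor that binds ferritin, was the 1 gene of these lists past the rule in both knockouts, on opposite sides of the control. Its read counts were 1019, 325 and 1929, or 52.4, 19.7 and 118 CPM. It was 2.66-fold lower in USP39-KO (2.34 to 3.02) and 2.25-fold higher in SIRT7-KO (2.09 to 2.43) and 5.99-fold higher in SIRT7-KO than in USP39-KO (5.32 to 6.75). Its order was that of STEAP3 and the reverse of that of TFRC. SLC39A14, a carrier of iron not bound to transferrin and the most abundant gene of the same list, had 70.7, 77.4 and 67.5 FPKM, within 0.15 of the control on the log2 scale. Haemopexin (HPX), a haem scavenger, was lower in SIRT7-KO by the rule on 14, 9 and 3 reads and is named for completeness after its values were seen.

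BMP2, a ligand that drives hepcidin transcription, had 3299, 6482 and 2854 reads and was 2.32-fold higher in USP39-KO than in the control (2.22 to 2.42) and 1.03-fold in SIRT7-KO (0.979 to 1.08). Hepcidin axis genes had a median of 0.25 in USP39-KO, with 13 of 15 above 0 (beside 49.6% of all kept genes) and 1 (BMP2) past the rule, and 0.02 in SIRT7-KO with none past it. Hepcidin itself (HAMP) had 2, 5 and 6 reads, too few to be kept, and HJV of the same list had 0 throughout. Both fall outside the naming rule. Activity of the pathway was not tested. ID1, a target of the same pathway and the most abundant of the list, had 283, 292.2 and 328.2 FPKM. ZFP36, an RNA-binding protein that promotes decay of AU-rich messages, had 343, 307 and 611 reads and was 2.12-fold higher in SIRT7-KO (1.85 to 2.43). EPAS1, a hypoxia factor whose message carries an iron-responsive element, had 57.4, 67.4 and 53.2 FPKM and passed no rule.

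Genes of iron-sulfur cluster and haem assembly stayed under 2-fold against the control. None of 22 mitochondrial, 9 cytosolic and 15 haem genes passed the rule in either knockout, with medians of -0.06, 0.08 and 0.09 in USP39-KO and 0.04, -0.08 and 0.19 in SIRT7-KO. Of all kept genes, 1.49% were called upward and 3.37% downward in USP39-KO, and 3.02% and 4.05% in SIRT7-KO. In lists this small such shares are few genes, so nothing is read from the lack of calls here and below. The most abundant genes of the mitochondrial, cytosolic and haem lists were HSPA9, a mitochondrial chaperone (216.4 FPKM in the control), NDOR1 (49.5) and TMEM14C (113). Of 10 detected storage and chaperone genes none passed, and GLRX3, a cytosolic glutaredoxin, was the most abundant (49.2). Among 13 ferroptosis regulators, the cystine carrier SLC7A11 (3461, 3321 and 788 reads) and the glutathione-degrading enzyme CHAC1 (730, 633 and 124 reads) were lower in SIRT7-KO, 3.69-fold (3.41 to 3.99) and 4.95-fold (4.08 to 6.03). Both are also known ATF4 targets. VDAC2, the most abundant of that list, had log2 ratios of 0.37 and 0.02. Of 13 copper-handling genes, read because STEAP4 also reduces copper, none passed the rule against control, and the metallothionein MT2A, the most abundant, had 76.2, 95 and 91.9 FPKM. Between the knockouts 1 copper gene, MT1X, was higher in SIRT7-KO on 15, 7 and 24 reads, named after its values were seen.

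Between the knockouts, the called genes of the iron lists were SCARA5, ZFP36, HIF1A and ALOX12 (higher in SIRT7-KO) and BMP2, CHAC1, SLC7A11, SMAD6 and ISCA1 (lower). HIF1A, ALOX12, SMAD6 and ISCA1 fall outside the naming rule and were named after their values were seen. HIF1A, the hypoxia factor, had 3593, 2169 and 4567 reads, and SMAD6, an inhibitor of BMP signalling, had 1740, 2932 and 1300. ISCA1, which acts in mitochondrial iron-sulfur assembly, had 886, 996 and 464 reads. SMAD6, BMP2 and ISCA1 were all highest in USP39-KO. They are listed because they were called lower in SIRT7-KO than in USP39-KO, which fixed the order of the knockouts. Nothing is read from their sharing that order with each other or with TFRC.

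**Figure D4:**
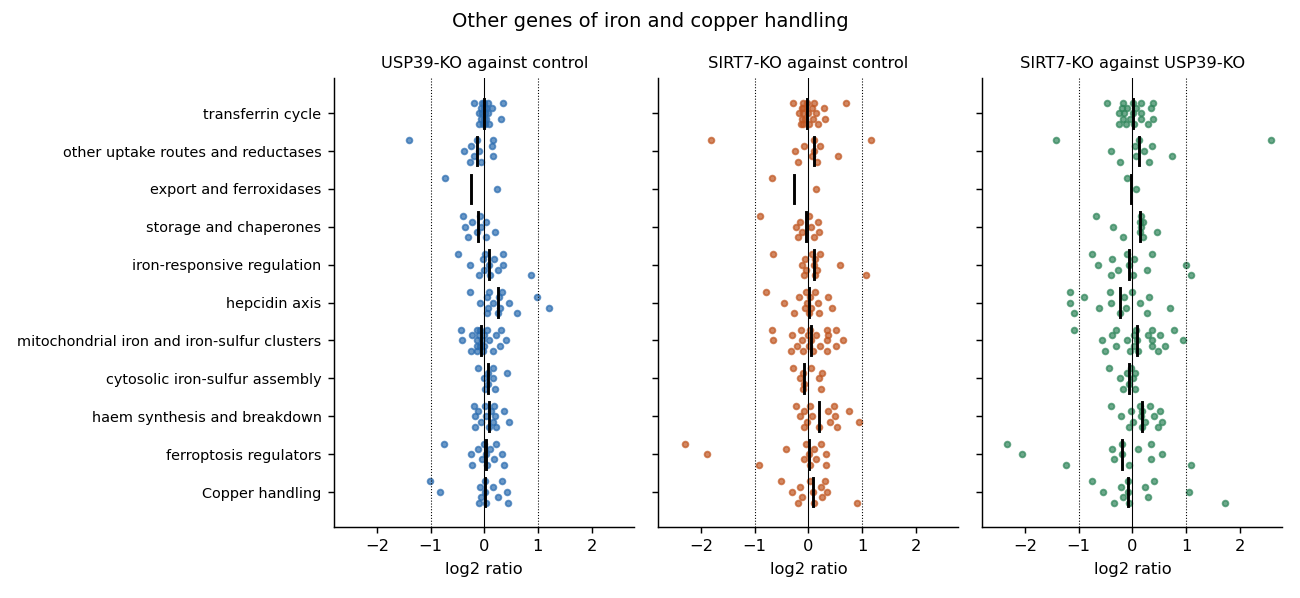
Log2 ratios of the detected genes of 10 iron lists and a copper list in the 3 pairs of libraries. Points are genes, black bars are list medians and dotted lines mark 2-fold. Most genes lie within 2-fold, the point at 2.58 between the knockouts is SCARA5, and the 2 lowest points there, at -2.34 and -2.06, are CHAC1 and SLC7A11.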

How the data were processed

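RNA from 3 libraries (control, USP39-KO and SIRT7-KO) was made with Trizol and a TruSeq kit, per the labels' protocols. The authors deposited 1 table of raw read counts per gene, gene length and FPKM, per the file headers. No label or header names the aligner, counter, strand setting, genome build or annotation. The FPKM values deposited by the authors equal counts scaled by length and library total (relative tolerance 1e-06, all genes with reads). Per-gene length is the one the authors deposited. Symbols came by Ensembl identifier from a table of gene names, then GENCODE 29 (19649 of 22827 genes).

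Counts were scaled by TMM (edgeR 4.0.16; factors 1.000, 0.990 and 1.010). Log2 ratios used a prior of 0.5 counts, folds are ratios of CPM, and intervals are exact conditional binomial (95%). Reads are not independent molecules, so intervals and the floor of 3 counts cover counting error only. Genes with at least 10 counts in a library were kept. With 1 library a group no test was run. Steps were tested on simulated data.

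Named are all members, list genes past the rule with at least 100 counts, each list's most abundant gene, STEAP4's 6 nearest genes and the neighbours of 3 STEAP genes. Members and lists were chosen with earlier results of these data known. The alternatives were other scalings, count filters, prior and fold rules. Values of 2 genes are not reported here, and list counts and sums leave them out.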

Additional observations from a re-analysis of the deposited data

How the results depend on the processing

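The counts of called members and of called iron list genes were recomputed under 3 other scalings, 2 other count filters, a prior of 2 and 2 other size rules. Member medians were recomputed under the scalings, filters and prior, and member log2 ratios under the scalings and prior. Other values, such as single list genes, were not recomputed. All 96 recomputed member log2 ratios stayed within their counting intervals, and 5 changed sign, all of SLC11A2, whose intervals span 0. All 18 medians moved by under 0.1. Of 48 recomputed counts of called members 3 changed, all with a 1.5-fold rule: in SIRT7-KO against control 2 were higher and 1 lower, and 2 were higher in SIRT7-KO than in USP39-KO. Of 48 counts for the iron lists 16 changed, 8 of them by over 1.5 times, all 8 under another size rule. With the 1.5-fold rule there were 4 higher and 3 lower in USP39-KO, 7 higher and 7 lower in SIRT7-KO, and 9 higher and 8 lower between the knockouts. With the whole interval past 2-fold, SIRT7-KO had 1 higher and 2 lower against control, and 2 higher and 4 lower against USP39-KO. The other changes, with the count filters and upper-quartile scaling, were of 1 gene each: 3 higher between the knockouts with upper-quartile scaling, 3 higher and 4 lower in SIRT7-KO and 6 lower between the knockouts with no filter, and 2 lower in SIRT7-KO and 3 higher between the knockouts with at least 100 counts. Depth limits STEAP4 most, whose control level rests on 12 reads. STEAP2 and SLC40A1 had 0 reads, and whether their reads could be counted is not known.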
